A study of Mus musculus with 6 samples.

Results

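The 37 genes described here encode lysosomal hydrolases and cathepsins together with a few lysosomal membrane proteins and regulators, and all 37 were measured, among 19752 genes in all. They were taken from a list of gene symbols, 1 probe set per gene. The rule uses no measured value, but the list was drawn up with earlier results of these arrays known. The samples were skeletal muscle, flash-frozen and extracted with TRIzol, from mdx mice. These mice have no dystrophin, and their muscle goes through cycles of fibre necrosis, immune infiltration and repair. The treated group was 3 arrays from mdx mice injected with an anti-CD25 monoclonal antibody, clone PC61. CD25, the alpha chain of the interleukin-2 receptor, is abundant on regulatory T cells. The control group was 3 arrays from mdx mice injected with rat IgG. Both groups carried the mdx background, were labelled male and received 2 injections, on days 17 and 20 of age. There was no wild-type group. The age at dissection is unsettled, since the design text gives 7 days after the last injection (day 27) and the labels give 6 weeks (day 42). The study's title frames the comparison as an effect of depleting regulatory T cells in dystrophic muscle.

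Lysosomes are acidic organelles in which proteases, glycosidases and lipases break down material brought in by endocytosis, phagocytosis and autophagy. Most of these enzymes are made in every cell, but macrophages, which clear debris of necrotic fibres in injured muscle, hold them in quantity, and some cathepsins serve antigen presentation there. The transcription factor TFEB and its relatives bind E-box sequences in the promoters of many lysosomal genes and raise their transcription when lysosomes are stressed or nutrients are short. In muscle fibres, loss of lysosomal function is known from storage disorders such as Pompe disease, in which acid alpha-glucosidase fails and glycogen collects.

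The arrays were alike in median intensity, at 149.8 to 151.5, but not in spread. The lower quartile was 57.6, 57.7 and 56.5 on rat IgG 1, rat IgG 2 and anti-CD25 3. It was 51.2 to 51.9 on rat IgG 3, anti-CD25 1 and anti-CD25 2. The upper quartile was 407 to 416 on the former arrays and 428 to 437 on the latter. This split is uneven between the groups. Its part in the differences below was not tested beyond a refit after a second quantile normalization, given with the alternatives at the end. Precision is limited by how few arrays there are. Foxp3, the transcription factor of regulatory T cells, averaged 6.48 ± 0.114 log2 units with anti-CD25 and 6.57 ± 0.128 with rat IgG (SD, n = 3 each), and Il2ra, which encodes the antibody's target, averaged 5.66 ± 0.124 with anti-CD25 and 5.67 ± 0.0899 with rat IgG (SD, n = 3 each). Both were dim probe sets, so these values say little about the depletion itself. Although every sample is labelled male, Xist, the RNA of the inactive X chromosome, lay between 11.77 and 11.94 log2 units on 4 arrays. It lay at 5.48 and 5.49 on rat IgG 3 and anti-CD25 3. The Y-linked gene Eif2s3y lay between 3.47 and 3.77 on the 4 high-Xist arrays and at 9.16 and 9.22 on rat IgG 3 and anti-CD25 3. Uty, also Y-linked, lay between 3.61 and 3.94 and at 8.77 and 8.57. The 4 high-Xist arrays thus have the pattern of female samples, against their label. Anti-CD25 and rat IgG thus had the same mix, with high Xist on 2 arrays and low Xist on 1. The labels do not say whether samples of 1 group came from separate animals, and every p-value therefore rests on the spread among these samples, part of which may be technical. Myofibre markers were bright on all arrays, with none of the 10 below 12.41 log2 units.

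The lysosomal genes were bright as a set. On all 6 arrays 36 of the 37 lay above that array's median gene, and 28 lay above its upper quartile on every array. The exception was Ctse, cathepsin E, an aspartic protease of stomach and some immune cells. It measured 5.99, 5.78 and 6.02 log2 units on anti-CD25 arrays 1, 2 and 3 and 5.90, 6.08 and 5.60 on rat IgG arrays 1, 2 and 3, close to the lower quartile of each array (5.71 to 5.91). The brightest probe sets were those of Psap, the precursor of the saposins that help enzymes reach sphingolipids, of the proteases Ctsb and Ctsd, and of the membrane glycoprotein Lamp1. Brightness depends on each probe set's sequence, so this order is not an order of transcript abundance.

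At limma's adjusted p threshold of 0.05 there were 0 lysosomal genes and 0% of all 19752 genes, and the smallest adjusted p among the 37 was 0.7496. Below that threshold the values leaned one way. The log2 difference (always anti-CD25 minus rat IgG) was above 0 in 32 of the 37 genes, against 41.1% of all genes and 54.1% of genes above the 50th percentile of mean level. The median difference of the 37 was 0.19, against -0.026 over all genes and 0.011 over genes above the 50th percentile. At an unadjusted p under 0.05 there were 8 higher members (21.6%), where 2.3% of all genes were, and 0 lower members, where 3.98% of all genes were. The groups did not overlap in 8 members with higher values on the anti-CD25 arrays (21.6%, against 4.28% of all genes) and in 1 with lower values (2.7%, against 7.46%). Against brighter genes the gap was smaller. Of the 36 members above the 50th percentile of mean level, the same fit had 8 higher at an unadjusted p under 0.05, against 3.31% of the genes above that percentile, and 0 lower, against 1.91%. Groups without overlap were found in 8 of these 36 with higher values, against 6.73%, and in 1 with lower values, against 5.96%. Members that vary together are not separate pieces of evidence.

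**Figure D1:**
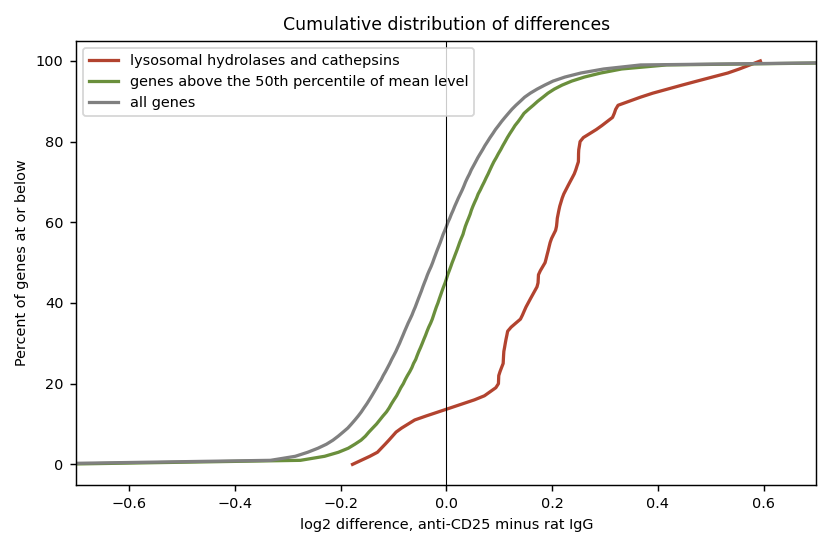
Cumulative distribution of log2 differences, anti-CD25 minus rat IgG (x axis), as the percent of genes at or below each value (y axis), for the 37 lysosomal genes, for genes above the 50th percentile of mean level and for all genes. The curve of the lysosomal genes lies to the right of both others over most of its course, with medians of 0.19, 0.011 and -0.026 in that order.

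The counts depended on single arrays. Omitting anti-CD25 1 or anti-CD25 3 left 2 members with higher values at an unadjusted p under 0.05 in each case (1.44% and 1.74% of all genes), and omitting anti-CD25 2 gave 17 (2.25%). Omitting rat IgG 2 left 2 (0.942%), whereas 10 were found on omitting rat IgG 1 (2.7%) and 12 on omitting rat IgG 3 (5.79%). At an adjusted p of 0.05 there were 0 members in each of these 6 fits, and 0% of all genes except on omitting rat IgG 3 (0.0354%). With a variance trend and robust fitting of all 6 arrays 13 members had higher values at an unadjusted p under 0.05 (3.18% of all genes). The median difference was 0.12 on omitting anti-CD25 1, 0.24 on omitting anti-CD25 2 and 0.11 on omitting rat IgG 2. The difference of a single gene moved by over 1.5 times on omitting at least 1 array in 27 of the 37 members. Rat IgG 2 did this in 21 members, anti-CD25 1 in 11 and anti-CD25 3 in 7, and each of the other 3 arrays in 3 or 4. The 10 members without such a move were Ctsb, Ctso, Ctsz, Tpp1, Cd63, Npc1, Naglu, Lipa, Asah1 and Psap. The median difference of the 37 was 0.20 on the 4 high-Xist arrays and 0.14 on the pair with low Xist. Within each Xist class, group cannot be told apart from the split in spread, which runs in opposite directions in the classes. Genes at or below the 50th percentile of mean level had medians of -0.15 (high Xist) and 0.082 (low Xist). Those above it had 0.045 and -0.053. A difference above 0 in both Xist classes was found in 27 of the 37 members. The interaction of group and Xist class is the same contrast between arrays as the split in spread. In a fit with an interaction of group and Xist class, 0 of the 37 members passed at an adjusted p of 0.05 (0.0405% of all genes did) and 1, Ctse, had an unadjusted p under 0.05 (19.4% of all genes).

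**Figure D2:**
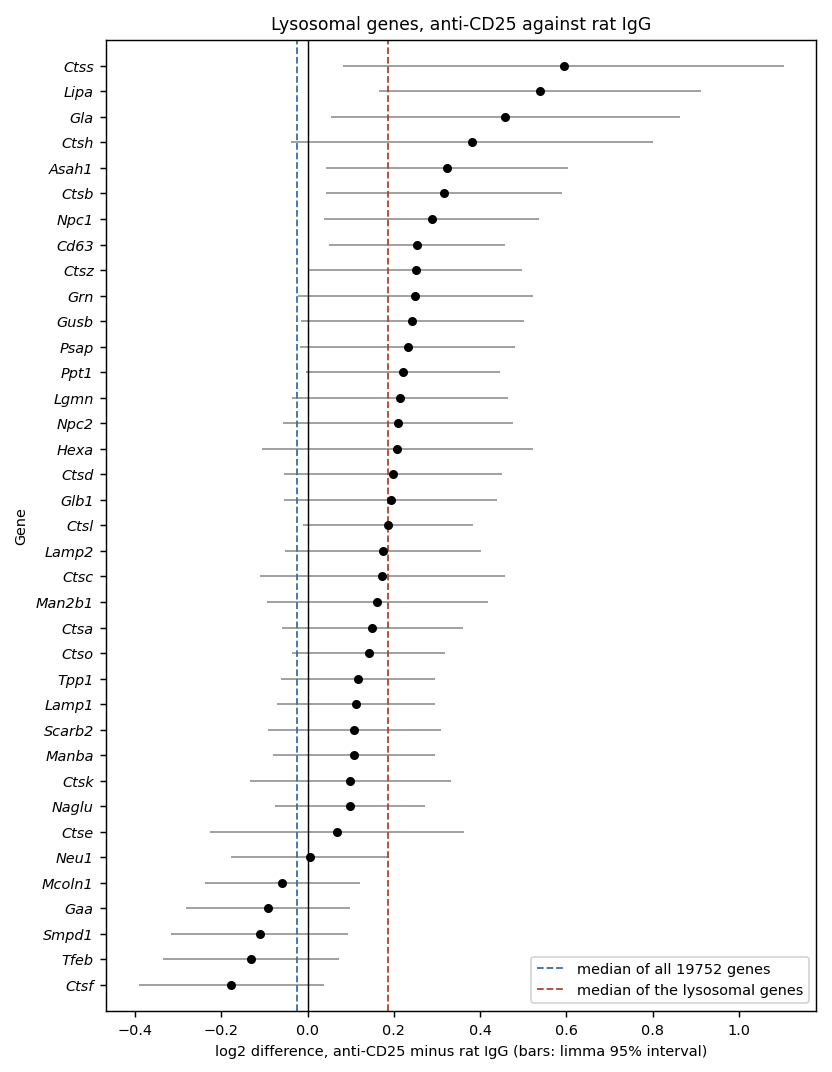
Log2 difference of each of the 37 lysosomal genes (points) with limma's 95% interval (bars), anti-CD25 minus rat IgG on the x axis, genes on the y axis. The intervals of 8 genes, Ctss, Lipa, Gla, Asah1, Ctsb, Npc1, Cd63 and Ctsz, lie above 0, none lies below 0, and the dashed lines mark the medians of all genes (-0.026) and of the lysosomal genes (0.19).

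Among the cysteine cathepsins, papain-like proteases of the lysosome, 8 of 9 had higher means with anti-CD25, with a median difference of 0.19 and none past the test. Ctss, cathepsin S, which trims the invariant chain of MHC class II in antigen-presenting cells, measured 10.88, 10.05 and 10.65 log2 units on anti-CD25 arrays 1, 2 and 3 and 10.15, 9.53 and 10.11 on rat IgG arrays 1, 2 and 3. Anti-CD25 1 and 3 were higher than every rat IgG array, while anti-CD25 2 lay below rat IgG 1 and 3, so the groups overlapped. The difference of 0.59 (SE 0.23, 95% interval 0.083 to 1.11), a 1.51-fold higher geometric mean, was the largest of the 37 and had an adjusted p of 0.7496 in limma. It was 0.39 without rat IgG 2.

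Ctsb, cathepsin B, an abundant endopeptidase and exopeptidase, measured 12.48, 12.20 and 12.49 with anti-CD25 and 12.23, 11.88 and 12.12 with rat IgG, in the order of the array numbers. Again 2 anti-CD25 arrays stood above all others and anti-CD25 2 lay among the rat IgG arrays, with a difference of 0.32 (SE 0.12). Ctsz, cathepsin Z, a carboxypeptidase that is also secreted, measured 10.87, 10.61 and 10.86 with anti-CD25 and 10.51, 10.39 and 10.68 with rat IgG, a difference of 0.25 (SE 0.11). Here rat IgG 3 was the array that reached into the anti-CD25 range. Ctsh, an aminopeptidase, measured 10.37, 9.82 and 10.29 with anti-CD25 and 10.05, 9.42 and 9.86 with rat IgG, a difference of 0.38 (SE 0.19) whose interval, -0.039 to 0.80, includes 0. It was 0.20 without rat IgG 2.

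Ctsl and Ctso were the cysteine cathepsins whose groups did not overlap. Ctsl, cathepsin L, a broad endopeptidase of muscle and macrophages, measured 11.11, 11.15 and 11.17 with anti-CD25 and 11.07, 10.83 and 10.97 with rat IgG, a difference of 0.19 (SE 0.087). Its anti-CD25 values were close together and the gap to rat IgG 1 was small. Ctso, a little-studied relative, differed by 0.14 (SE 0.078). Ctsc, the dipeptidyl peptidase that activates granule serine proteases, differed by 0.17 (SE 0.13), and Ctsk, the collagen-degrading protease of osteoclasts, by 0.099 (SE 0.10). Ctsf, cathepsin F, ran the other way. It measured 7.92, 7.99 and 7.74 with anti-CD25 and 7.98, 8.05 and 8.15 with rat IgG, a difference of -0.18 (SE 0.095) that was the lowest of the 37. Several of these differences rested on single arrays. On omitting rat IgG 2, Ctsc was at 0.038, Ctsk at 0.017 and Ctsl at 0.12. On omitting anti-CD25 1, Ctsc was at 0.12 and Ctsk at 0.047. Ctsk was at 0.15 on omitting rat IgG 3 and 0.16 on omitting anti-CD25 3, where Ctsf was at -0.11.

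The other lysosomal proteases had means higher with anti-CD25 in 5 of 5, with a median difference of 0.15 and none past the test. Lgmn, legumain, an asparaginyl endopeptidase that also processes cathepsins, measured 11.90, 11.69 and 12.00 with anti-CD25 and 11.68, 11.50 and 11.78 with rat IgG, a difference of 0.21 (SE 0.11). Ctsd, cathepsin D, the main aspartic protease of the lysosome, measured 12.34, 12.03 and 12.36 with anti-CD25 and 12.06, 11.92 and 12.15 with rat IgG, a difference of 0.20 (SE 0.11). In both genes anti-CD25 2 lay inside the rat IgG range. Ctsa, the serine carboxypeptidase that protects beta-galactosidase and neuraminidase, differed by 0.15 (SE 0.093). Tpp1, a tripeptidyl peptidase lost in a neuronal ceroid lipofuscinosis, differed by 0.12 (SE 0.079) with no overlap of the groups, and Ctse by 0.0685 (SE 0.13). Omitting rat IgG 2 gave 0.14 for Lgmn, 0.094 for Ctsa and 0.18 for Ctse, and omitting anti-CD25 2 gave 0.30 for Ctsd and 0.14 for Ctse. Ctse was at 0.037 on omitting anti-CD25 1, at 0.025 on omitting anti-CD25 3 and at -0.062 on omitting rat IgG 3.

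Among enzymes and carriers of lipids, 5 of 6 members had higher means with anti-CD25, with a median difference of 0.23 and none past the test. The largest statistic of the 37 was that of Lipa. Lipa, lysosomal acid lipase, which frees cholesterol and fatty acids from internalised lipoproteins and cell debris, measured 10.36, 9.83 and 10.17 with anti-CD25 and 9.80, 9.29 and 9.65 with rat IgG. All 3 anti-CD25 arrays lay above all 3 rat IgG arrays, although anti-CD25 2 exceeded rat IgG 1 by little. The means were 10.12 ± 0.270 and 9.58 ± 0.265 (SD, n = 3 each), a 1.45-fold difference of 0.54 on the log2 scale (SE 0.16, 95% interval 0.17 to 0.91) with a limma unadjusted p of 0.00977 and adjusted p of 0.7496. An exact permutation test, two-sided, gave p = 0.1, which is as small as 3 against 3 can give. The same test gave 0.1 for Cd63 and Npc1, 0.2 for Ctsb, Asah1, Gla and Ctsz, and 0.3 for Ctss. The Lipa difference ran from 0.39 without rat IgG 2 to 0.68 without anti-CD25 2.

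Asah1, acid ceramidase, measured 10.81, 10.42 and 10.69 with anti-CD25 and 10.44, 10.14 and 10.38 with rat IgG, a difference of 0.32 (SE 0.12) in which anti-CD25 2 lay just under rat IgG 1. Psap measured 12.91, 12.69 and 12.99 with anti-CD25 and 12.78, 12.49 and 12.63 with rat IgG, a difference of 0.23 (SE 0.11). Ppt1, a thioesterase that removes palmitate from proteins, differed by 0.22 (SE 0.099) with no overlap, and Npc2, the soluble cholesterol carrier, by 0.21 (SE 0.12). Smpd1, acid sphingomyelinase, differed by -0.11 (SE 0.091), with its highest value, 10.72, on rat IgG 2 and its lowest, 10.41, on anti-CD25 3. On omitting rat IgG 2, Npc2 was at 0.11, Ppt1 at 0.13 and Smpd1 at -0.056. Smpd1 was at -0.17 on omitting rat IgG 1 and at -0.068 on omitting anti-CD25 3.

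**Figure D3:**
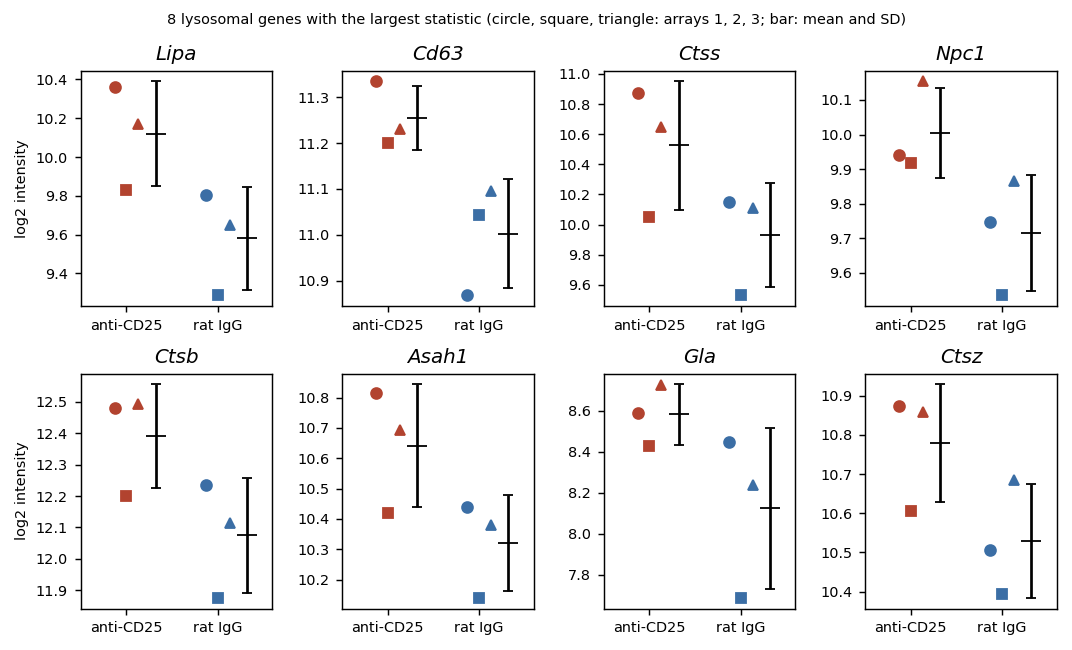
Log2 intensity (y axis, a scale of its own in each panel that does not start at 0) of the 8 lysosomal genes with the largest limma statistic on the 3 anti-CD25 arrays and the 3 rat IgG arrays, with each group's mean and SD. The groups are separate in Lipa, Cd63 and Npc1 and overlap in the 5 others, where anti-CD25 2 (square) reaches into the rat IgG range.

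Of the 9 glycosidases, which strip sugars from glycoproteins, glycolipids and glycogen, 8 had higher means with anti-CD25, with a median difference of 0.16 and none past the test. Gla, alpha-galactosidase A, the enzyme of Fabry disease, measured 8.59, 8.43 and 8.72 with anti-CD25 and 8.45, 7.69 and 8.24 with rat IgG. Rat IgG 2 stood far below the other 5 arrays, and the difference of 0.46 (SE 0.18) was 0.24 without it. Gusb, beta-glucuronidase, measured 9.05, 8.79 and 8.97 with anti-CD25 and 8.77, 8.49 and 8.83 with rat IgG, a difference of 0.24 (SE 0.11). Hexa, the alpha subunit of beta-hexosaminidase, differed by 0.21 (SE 0.14), Glb1, beta-galactosidase, by 0.19 (SE 0.11), and Man2b1, alpha-mannosidase, by 0.16 (SE 0.11). Manba, beta-mannosidase, and Naglu, which acts on heparan sulfate, differed by 0.11 (SE 0.083) and 0.098 (SE 0.077), Naglu with no overlap. Neu1, the sialidase, was near equal at 0.0052 (SE 0.080, 95% interval -0.18 to 0.19), and its sign depended on the array omitted (-0.038 to 0.041). On omitting rat IgG 2, Gusb was at 0.14, Hexa at 0.11, Glb1 at 0.10 and Man2b1 at 0.091. On omitting anti-CD25 1, Hexa was at 0.099, Glb1 at 0.12, Man2b1 at 0.061 and Manba at 0.071. Hexa was at 0.33 on omitting anti-CD25 2.

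Gaa, acid alpha-glucosidase, the glycogen-degrading enzyme whose loss causes Pompe disease, was the glycosidase with a lower mean. It measured 10.68, 10.70 and 10.52 with anti-CD25 and 10.69, 10.77 and 10.72 with rat IgG. The groups overlapped, and the difference was -0.093 (SE 0.084, 95% interval -0.28 to 0.097). It was -0.037 on omitting anti-CD25 3.

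Membrane proteins had 5 of 6 means higher with anti-CD25, with a median difference of 0.14 and none past the test. Cd63, a tetraspanin of late endosomes and exosomes, measured 11.34, 11.20 and 11.23 with anti-CD25 and 10.87, 11.04 and 11.10 with rat IgG, a difference of 0.25 (SE 0.090) with no overlap. Its lowest array was rat IgG 1, where most members were lowest on rat IgG 2. Npc1, the membrane transporter that passes cholesterol out of the lysosome, measured 9.94, 9.92 and 10.15 with anti-CD25 and 9.75, 9.54 and 9.87 with rat IgG, a difference of 0.29 (SE 0.11), also with no overlap. Lamp2, which serves chaperone-mediated autophagy and fusion with autophagosomes, differed by 0.17 (SE 0.10), and Scarb2, the receptor that carries glucocerebrosidase to lysosomes, by 0.11 (SE 0.089). Lamp1, an abundant glycoprotein of the lysosomal membrane, measured 11.96, 11.78 and 11.91 with anti-CD25 and 11.79, 11.76 and 11.77 with rat IgG, a difference of 0.11 (SE 0.081) in which anti-CD25 2 lay just under rat IgG 1. Mcoln1, the calcium channel of the lysosomal membrane that activates TFEB signalling, measured 9.59, 9.50 and 9.53 with anti-CD25 and 9.65, 9.63 and 9.52 with rat IgG, a difference of -0.058 (SE 0.080) that was -0.033 on omitting rat IgG 1 and -0.099 on omitting rat IgG 3. Lamp2 was at 0.10 on omitting either rat IgG 2 or anti-CD25 1, and Lamp1 at 0.074 on omitting anti-CD25 1. Scarb2 was at 0.055 on omitting rat IgG 2, at 0.067 on omitting anti-CD25 1 and at 0.16 on omitting rat IgG 3.

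The pair of regulators differed in sign. Tfeb measured 8.63, 8.60 and 8.44 with anti-CD25 and 8.64, 8.80 and 8.64 with rat IgG, and was the member whose anti-CD25 values lay below every rat IgG value, by a narrow margin. Its difference was -0.13 (SE 0.090, 95% interval -0.34 to 0.072). Grn, progranulin, which is cut into granulins in lysosomes and abounds in macrophages, measured 11.70, 11.37 and 11.66 with anti-CD25 and 11.41, 11.13 and 11.44 with rat IgG, a difference of 0.25 (SE 0.12). On omitting rat IgG 2, Grn was at 0.15 and Tfeb at -0.079, and on omitting anti-CD25 3 Tfeb was at -0.075.

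**Figure D4:**
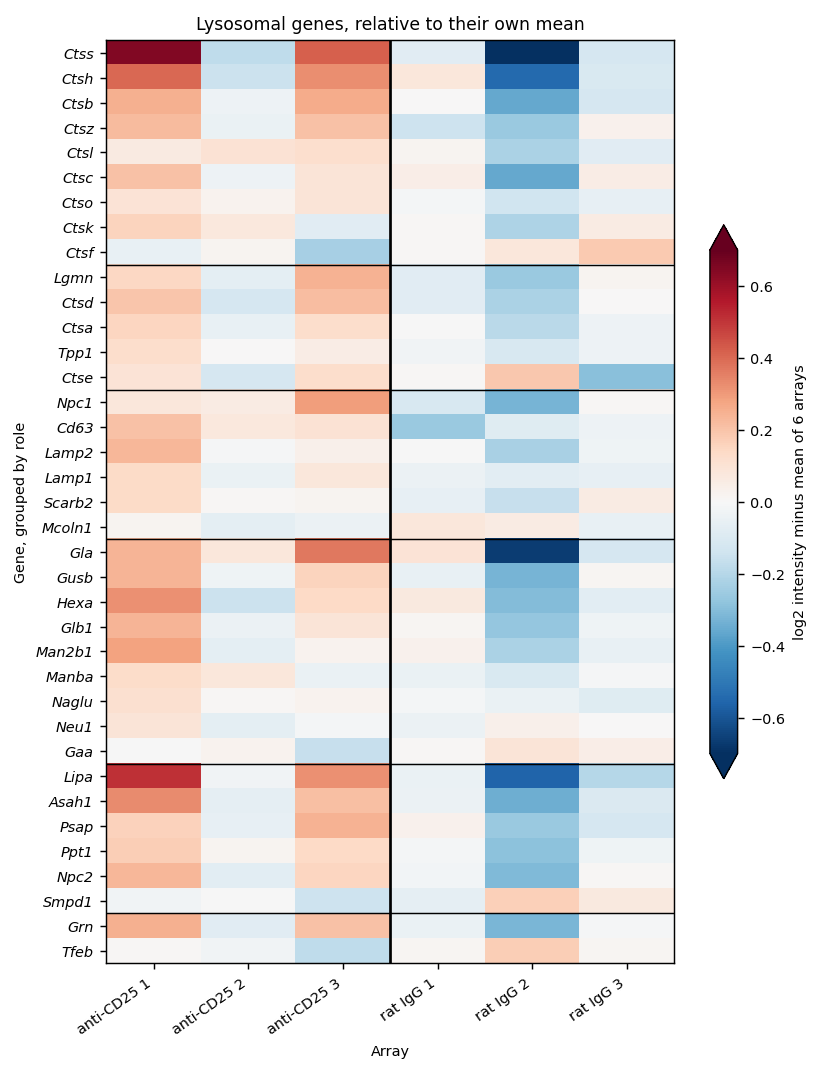
Each lysosomal gene (rows, grouped by role and separated by lines: cysteine cathepsins, other proteases, membrane proteins, glycosidases, lipid enzymes and carriers, regulators) on each array (columns, anti-CD25 left of rat IgG) as log2 intensity minus the gene's mean over 6 arrays. Most rows are highest (red) on anti-CD25 1 and 3 and lowest (blue) on rat IgG 2, and Ctsf, Gaa, Smpd1 and Tfeb run the other way.

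The lysosomal genes varied together over the arrays. Of the 37, 24 were highest on anti-CD25 1 and 7 on anti-CD25 3, and 28 were lowest on rat IgG 2. Within the anti-CD25 group 30 were lowest on anti-CD25 2, and within the rat IgG group 28 were lowest on rat IgG 2. Anti-CD25 1 and 3 both exceeded every rat IgG array in 26 members, whereas anti-CD25 2 did so in 10. The median over the 37 genes of the level relative to each gene's own mean was 0.16, -0.034 and 0.12 on anti-CD25 1, 2 and 3 and -0.015, -0.22 and -0.031 on rat IgG 1, 2 and 3. The array with the lowest anti-CD25 value therefore lay within the rat IgG range.

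As a description over 6 arrays, the median Pearson correlation of the 666 pairs of members was 0.74, against 0.0095 over all pairs of genes, and 44.6% of member pairs exceeded 0.8, against 4.63% of all pairs. With each group's mean removed, so that the treatment contrast no longer enters, the median over member pairs was 0.57, against 0.00017 over all pairs. The pairs share arrays and each array's normalization. Ctss, Asah1, Grn, Ctsa and Gusb followed the rest most closely, with median correlations to the other members of 0.93, 0.92, 0.92, 0.92 and 0.91. Smpd1, Tfeb, Gaa, Ctsf and Mcoln1, the 5 members with lower means with anti-CD25, ran against the rest, at -0.73, -0.70, -0.66, -0.61 and -0.25. With group means removed Mcoln1 no longer did (0.12), while the other 4 stayed below 0.

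Markers of macrophages were high on the same arrays. All 15 of 15 measured macrophage markers had higher means with anti-CD25, with a median difference of 0.30, and none passed the test. Their summed intensity was 25137, 18719 and 23168 on anti-CD25 1, 2 and 3 and 19129, 15722 and 19278 on rat IgG 1, 2 and 3, so it was high on the same anti-CD25 arrays, 1 and 3, and lowest on the same rat IgG array, 2, as the lysosomal genes. Mertk, an engulfment receptor, differed by 0.71 (SE 0.16), Cd163, the haemoglobin scavenger receptor, by 0.51 (SE 0.12), and Fcgr3, an IgG receptor, by 0.49 (SE 0.18), which was 0.33 on omitting rat IgG 2. On every array 14 of the 15 markers lay above that array's median gene. The exception was Cd14, whose 7.19 log2 units on rat IgG 1 was the lowest value and lay under the median of 7.30. The part of macrophage number in the lysosomal differences was not tested. In whole muscle, a different number of cells of a type and a different amount of RNA per cell cannot be told apart.

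Markers of other cell types had mostly lower means, as dim genes had in general: 71.9% of genes at or below the 50th percentile of mean level and 45.9% of those above it had a lower mean with anti-CD25, and the median difference of the dimmer genes was -0.065. Neutrophil markers had 7 of 8 means lower with anti-CD25 (median difference -0.12), T and B cell markers 9 of 10 (-0.088), eosinophil and mast cell markers 4 of 6 (-0.065) and endothelial markers 4 of 6 (-0.12). The neutrophil and lymphocyte markers were dim, with 8 of 8 and 10 of 10 at or below that percentile, and 4 of 6 eosinophil and mast cell markers were too. Of the endothelial markers 0 of 6 were, so the comparison with dim genes does not apply to them. Camp, Ltf and Elane, neutrophil granule proteins, differed by -0.21 (SE 0.089), -0.15 (SE 0.092) and -0.14 (SE 0.12). Cd79a, part of the B cell receptor, measured 4.81, 4.95 and 4.82 with anti-CD25 and 5.08, 5.52 and 5.24 with rat IgG, a difference of -0.42 (SE 0.12) with no overlap. Ms4a1, the B cell antigen CD20, and Cd8a, of cytotoxic T cells, differed by -0.15 (SE 0.11) and -0.12 (SE 0.11). Epx, eosinophil peroxidase, measured 4.84, 4.88 and 5.01 with anti-CD25 and 5.43, 5.54 and 5.03 with rat IgG, a difference of -0.42 (SE 0.13) with no overlap by a narrow margin at rat IgG 3. Prg2, an eosinophil granule protein, and Siglecf differed by -0.20 (SE 0.12) and -0.11 (SE 0.11). Of endothelial genes, Kdr differed by -0.27 (SE 0.12), Cldn5 by -0.24 (SE 0.12) and Tek by -0.20 (SE 0.13). Fibroblast markers (median -0.0079), with Pi16 at -0.16 (SE 0.15), Dpt at 0.057 (SE 0.087) and Col1a1 at -0.040 (SE 0.082), and myofibre markers (median -0.034), with Actn3 at -0.086 (SE 0.076), Mb at -0.11 (SE 0.10) and Tnni2 at -0.070 (SE 0.077), lay near 0. None of these markers passed the test. Osteoclast markers had 4 of 6 means higher (median difference 0.029), with Atp6v0d2, which macrophages also express, at 0.95 (SE 0.38), Oscar at -0.27 (SE 0.096) and Calcr at -0.16 (SE 0.081), and 0 past the test. Omitting 1 array moved many of these small differences by over 1.5 times, but not those of Cd79a, Epx, Camp, Oscar, Calcr, Actn3 and Tnni2.

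**Figure D5:**
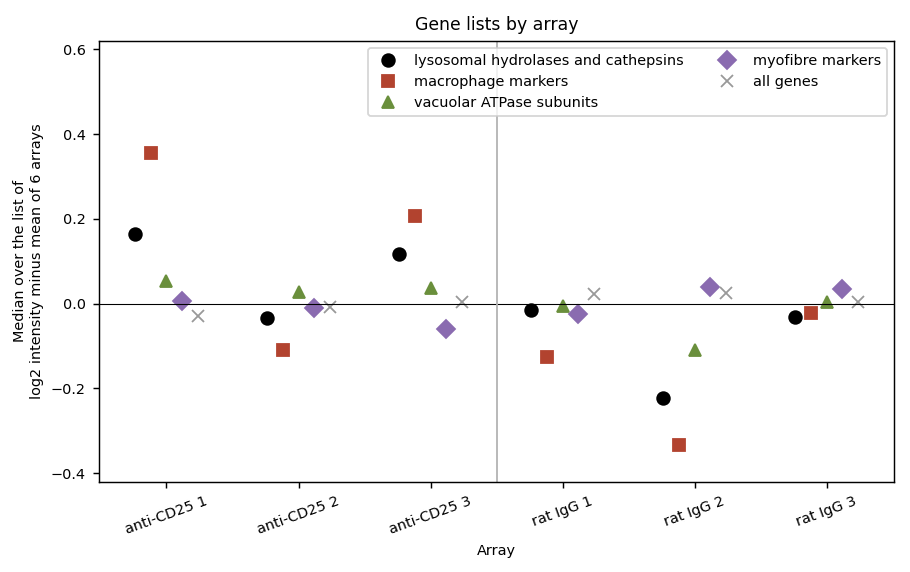
Median over each gene list of log2 intensity minus the gene's mean over 6 arrays (y axis) on each array (x axis, anti-CD25 left of rat IgG). The 37 lysosomal genes and the macrophage markers are highest on anti-CD25 1 (0.16 and 0.35) and lowest on rat IgG 2 (-0.22 and -0.33), while myofibre markers stay between -0.060 and 0.038.

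Other genes of the pathway were taken from lists that did not include the 37. Of 20 other lysosomal hydrolases 18 had higher means with anti-CD25, with a median difference of 0.096, and 0 passed the test. Galc, galactosylceramidase, measured 8.11, 7.86 and 8.03 with anti-CD25 and 7.76, 7.23 and 7.69 with rat IgG, a difference of 0.44 (SE 0.14) with no overlap. Aga, which cleaves asparagine-linked sugars, differed by 0.20 (SE 0.094) and the GM2 activator Gm2a by 0.22 (SE 0.14). Of 13 other lysosomal membrane proteins 12 had higher means, with a median of 0.13. Gpnmb, a glycoprotein of lipid-laden macrophages, measured 11.23, 10.16 and 11.26 with anti-CD25 and 10.30, 9.28 and 10.00 with rat IgG. Its difference of 1.03 (SE 0.33) exceeded that of any of the 37, with anti-CD25 2 inside the rat IgG range. Cd68, a macrophage lysosomal glycoprotein, differed by 0.45 (SE 0.17) and Laptm5, of leukocyte lysosomes, by 0.32 (SE 0.14). On omitting rat IgG 2, Galc was at 0.28, Gm2a at 0.11 and Laptm5 at 0.20.

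Subunits of the vacuolar ATPase, the pump that acidifies lysosomes, had 14 of 17 means higher with anti-CD25, with a median of 0.12 and 0 past the test. Atp6v1a, the catalytic subunit, measured 9.90, 9.98 and 10.09 with anti-CD25 and 9.85, 9.54 and 9.70 with rat IgG, a difference of 0.29 (SE 0.10) with no overlap, and Atp6v1b2 differed by 0.21 (SE 0.081). Atp6v0d2, a subunit of osteoclasts and macrophages, ranged over 8.23 to 9.41 with anti-CD25 (lowest on array 2) and 7.11 to 8.57 with rat IgG (lowest on array 2), a difference of 0.95 (SE 0.38) that was 0.54 without rat IgG 2.

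The machinery around the enzymes lay near 0 in its medians. Genes that sort enzymes to lysosomes had 4 of 8 means higher (median -0.021), with Gnptg at -0.096 (SE 0.077), Gnptab, a subunit of the enzyme that makes the mannose 6-phosphate tag, at 0.099 (SE 0.085) and the adaptor Gga2 at -0.081 (SE 0.090). Cathepsin inhibitors had 3 of 6 higher (median 0.0040), with Cstb, cystatin B, at 0.27 (SE 0.13), Stfa2 at -0.18 (SE 0.096) and Cst6 at -0.070 (SE 0.13). Autophagy genes had 7 of 13 higher (median 0.012), with Uvrag at 0.30 (SE 0.10), Ulk1, the kinase that starts autophagy, at -0.25 (SE 0.10) and Atg7 at 0.14 (SE 0.080). Among relatives and regulators of TFEB, 4 of 7 were higher (median 0.020). Tfec, the TFEB relative expressed in macrophages, measured 7.69, 7.87 and 8.21 with anti-CD25 and 7.42, 7.14 and 7.64 with rat IgG, a difference of 0.52 (SE 0.16) with no overlap. Rragc differed by 0.17 (SE 0.097) and Flcn by -0.079 (SE 0.084). None of these genes passed the test. The small differences rested on single arrays, Rragc being at 0.081 and Gnptab at 0.058 on omitting rat IgG 2, Cstb at 0.14 on omitting anti-CD25 1, Gga2 at -0.028 on omitting rat IgG 1 and Cst6 at 0.020 on omitting anti-CD25 2.

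Promoter sequences from RefSeq (GRCm38.p6) were matched for 32 of the 37 genes. Ctsb, Ctse, Ctsh, Asah1 and Npc1 had no entry and are not in the counts below. The 250 bases before each start of transcription were searched on both strands. The E-box CACGTG, a palindrome that TFEB family factors among many others can bind, was present before at least 1 start in 11 of 32 members (34.4%), against 6.86% of 27025 genes in the table. CACGTG with T before and A after it, the core of the element known from lysosomal promoters, was present in 4 of 32 (12.5%), against 0.907% of genes. These 4 promoters are shown, with CACGTG in capitals, because they hold that element.
Gla (chrX:134601006-134601255, minus strand): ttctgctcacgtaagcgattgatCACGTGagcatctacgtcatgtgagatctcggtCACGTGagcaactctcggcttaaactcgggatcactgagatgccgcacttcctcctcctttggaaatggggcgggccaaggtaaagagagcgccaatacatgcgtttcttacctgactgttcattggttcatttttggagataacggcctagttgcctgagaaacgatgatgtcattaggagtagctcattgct
Ctsa (chr2:164833523-164833772, plus strand): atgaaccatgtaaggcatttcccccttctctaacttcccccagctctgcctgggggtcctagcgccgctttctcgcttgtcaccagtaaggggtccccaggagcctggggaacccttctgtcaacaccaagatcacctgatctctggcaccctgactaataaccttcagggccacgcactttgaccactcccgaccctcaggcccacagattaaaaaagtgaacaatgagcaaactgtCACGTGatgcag
Ctsd (chr7:142387828-142388077, minus strand): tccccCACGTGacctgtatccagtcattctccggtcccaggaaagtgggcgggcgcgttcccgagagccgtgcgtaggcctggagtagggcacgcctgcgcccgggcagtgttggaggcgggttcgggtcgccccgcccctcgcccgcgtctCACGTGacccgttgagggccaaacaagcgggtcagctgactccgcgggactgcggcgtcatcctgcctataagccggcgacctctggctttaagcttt
Mcoln1 (chr8:3500269-3500518, plus strand): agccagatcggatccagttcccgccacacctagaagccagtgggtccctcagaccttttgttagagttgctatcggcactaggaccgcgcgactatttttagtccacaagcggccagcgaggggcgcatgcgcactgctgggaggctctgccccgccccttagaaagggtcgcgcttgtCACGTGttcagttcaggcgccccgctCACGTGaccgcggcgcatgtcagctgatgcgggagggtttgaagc
The differences of these 4 genes were 0.46, 0.15, 0.20 and -0.058 in the order shown, so the element was shared by members on either side of 0.

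Ctss and Lipa, with the largest differences of the 37, hold no CACGTG in this window. Their sequences are shown with GAGGAA or its complement, the core bound by the myeloid factor PU.1 among other ETS factors, in capitals. This motif was chosen after the values had been seen.
Ctss (chr3:95526536-95526785, plus strand): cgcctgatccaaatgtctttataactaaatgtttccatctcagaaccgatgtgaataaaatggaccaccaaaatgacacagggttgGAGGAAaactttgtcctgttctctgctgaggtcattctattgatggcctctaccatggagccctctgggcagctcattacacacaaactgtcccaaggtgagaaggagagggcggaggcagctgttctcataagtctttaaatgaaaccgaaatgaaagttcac
Lipa (chr19:34527475-34527724, minus strand): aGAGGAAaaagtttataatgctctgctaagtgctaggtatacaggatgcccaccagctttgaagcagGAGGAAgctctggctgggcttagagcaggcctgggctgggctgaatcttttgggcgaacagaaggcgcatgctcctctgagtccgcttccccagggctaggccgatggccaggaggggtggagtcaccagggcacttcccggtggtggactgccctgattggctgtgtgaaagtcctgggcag
GAGGAA was present in 12 of 32 members (37.5%), against 25.9% of genes, so it is a common sequence. The other 7 members with CACGTG were Lgmn (0.21), Glb1 (0.19), Ctsl (0.19), Lamp1 (0.11), Naglu (0.098), Gaa (-0.093) and Ctsf (-0.18). The difference was above 0 in 8 of the 11 members with CACGTG and in 19 of the 21 without it. A match describes the letters of the reference only, and no match says only that they are not in this window.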

How the data were processed

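Per the labels' protocols, each of 6 muscle RNA samples was run on its own Affymetrix array. The table the authors deposited holds intensity values of 24922 probe sets. Per the submitters' processing notes these were made by RMA with Affymetrix Power Tools (version not given in the sources used here). They are linear, so log2 was taken with no pseudocount and no intensity filter. RMA draws dim probe sets together, which understates their differences. The platform's annotation gave a single gene symbol for 21425 probe sets, several for 1399, which were left out, and none for 2098. The probe set with the highest mean stood for each of 19752 genes; every member had 1 probe set.

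Each gene was tested with limma 3.58.1 in R 4.3.3 (lmFit and eBayes, two-sided, group as the only term), with Benjamini-Hochberg adjustment over all 19752 genes and a threshold of 0.05. The fit was tested on simulated data. Single genes were also compared by exact permutation. The members and lists were chosen with earlier results of these data known, so lists are described by counts and medians and were not tested. Of 169 entries in the other lists 157 were measured. Named with values by array are the 8 members with the largest statistic and the 4 brightest, with further members by role; of other lists, the 3 genes with the largest statistic are named where a list is discussed. Alternatives covered normalization (quantiles repeated, or arrays centred on medians), the variance model (trend and robust, or array weights), genes above the 30th or the 50th percentile of mean level only, averaging of a gene's probe sets, added terms (replicate block, Xist class) and omission of each array in turn. The 4 arrays with high Xist alone, and the motif GAGGAA, were added after the data were seen. Fits without an array leave 2 in a group and pool the spread over both groups.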

Additional observations from a re-analysis of the deposited data

How the results depend on the processing

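No lysosomal gene passed an adjusted p of 0.05 in any alternative, the smallest being 0.162 within the 4 arrays with high Xist. Between the 4 high-Xist arrays and the low-Xist pair, the sign of the difference was the same in 31 of 37 genes. Group coincides with the split in spread in each of these subsets, in opposite directions. The low-Xist pair was not among the alternatives. Across the alternatives the sign held for 35 of 37 genes. The exceptions were Neu1, at -0.0029 after a second quantile normalization and -0.038 to 0.041 with an array left out, and Ctse, at -0.11 within the 4 arrays with high Xist and -0.062 to 0.18 with an array left out. The median difference ran from 0.11 to 0.24 with an array left out and from 0.16 to 0.20 in the other alternatives, and members with a difference above 0 numbered 31 or 32. Members with higher values at an unadjusted p under 0.05 numbered 13 with a variance trend and robust fitting (3.18% of all genes). With an array left out they numbered 2 to 17, with shares of all genes between 0.942% and 5.79%. Within the 4 arrays with high Xist, where fewer arrays enter, they numbered 5. The share of all genes was not computed for that subset, so its count cannot be read against a background. Ctsf, lower with anti-CD25, had an unadjusted limma p under 0.05 after a second quantile normalization. The cause of these shifts was not tested. With the replicate block no member passed the adjusted threshold, and the median difference was 0.19. Deviations of same-numbered arrays correlated at 0.030, -0.0067 and -0.17 for numbers 1, 2 and 3. These values show no pairing by number but, with so few arrays, cannot exclude one. Both low-Xist arrays carry number 3. The number of members with CACGTG, 11, was 4 with T before and A after it, a longer motif, and 12 for GAGGAA. The number of arrays limits precision: the 95% intervals of single members, not adjusted for the number of genes, reach from 0.17 to 0.51 log2 units to each side.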
